A study of Mus musculus with 20 samples.

Results

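The genes described here are those that make small RNAs and load them onto proteins in mouse hippocampus: Drosha, Dgcr8, Xpo5, Dicer1, Tarbp2, Prkra and the Argonaute genes Ago1, Ago2, Ago3 and Ago4. They were taken by name from a table of raw read counts per gene, and all 10 of them were present among its 25190 genes, in each of 20 libraries. Date-like names ("ago-01" to "ago-04") stood in the table for the 4 Argonaute genes, which were therefore matched by gene ID. The study infused small RNAs (sRNAs) from human post-mortem hippocampus into the hippocampus of mice, to ask whether the sRNAs of patients with schizophrenia alter it. All mice in the 4 groups were wild-type males of the strain C57BL/6JOlaHsd, 4 months old, fitted with bilateral cannulas over CA1 and infused 2 times, 48 hours apart. In the Vehicle group the infusion was artificial cerebrospinal fluid, and in the Control group it was a pool of sRNAs from 9 control individuals. Pool 1 and Pool 2 mice each received the pooled sRNAs of a separate set of 10 patients with schizophrenia. Hippocampal tissue was taken 24 hours after the last behavioural test, and 5 libraries were made for each group. As a model, each sRNA group carries 1 pool, so the pool and the disease of its donors cannot be told apart within a group. Nothing in the labels states that each library is a separate mouse, so p-values measure the spread between these libraries.

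A microRNA (miRNA) begins as a hairpin inside a longer transcript. In the nucleus the Microprocessor, made of the ribonuclease Drosha and its double-stranded RNA-binding partner Dgcr8, cuts the hairpin out, and exportin 5, encoded by Xpo5, carries it to the cytoplasm. There the ribonuclease Dicer, encoded by Dicer1 and accompanied by the double-stranded RNA-binding proteins of Tarbp2 and Prkra, trims it to a short duplex, from which 1 strand is held by an Argonaute protein and guides it to matching messenger RNAs. Of the mammalian Argonautes, Ago2 is best known for cutting its target. In neurons this machinery acts on messages at synapses among other places. Ready-made sRNAs given from outside need Argonaute proteins to act as miRNAs do, but not the earlier steps.

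The Microprocessor is also known to cut the Dgcr8 message itself, at hairpins near its 5′ end, which is why those are shown here. On GRCm38, Dgcr8 lies at chr16:18253948-18289246 on the minus strand. The hairpin of Mir1306, at chr16:18284239-18284317, lies with all of its 79 bases within coding exon sequence of Dgcr8. A further hairpin, Gm24572, which gives miR-3618, lies at chr16:18284550-18284637 within untranslated exon sequence of the same gene, upstream of the first hairpin. The Mir1306 hairpin is printed with both mature arms in capitals, and the 4 mature miRNAs with the seed (bases 2 to 8) in capitals, all from RefSeq (GRCm38.p6).
Mir1306 hairpin: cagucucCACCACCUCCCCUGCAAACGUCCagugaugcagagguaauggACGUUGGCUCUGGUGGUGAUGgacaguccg
mmu-miR-1306-5p: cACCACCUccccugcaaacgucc
mmu-miR-1306-3p: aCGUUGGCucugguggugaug
mmu-miR-3618-5p: uGUGAUUUccaauaauugaggc
mmu-miR-3618-3p: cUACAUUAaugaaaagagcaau
These 4 miRNAs have 4 different seeds. Neither hairpin has a row of its own in the count table. A counter of this kind sets aside a read that overlaps 2 genes on the strand counted, so reads over the hairpins may be missing from the Dgcr8 count. Dgcr8 also shares 327 exon bases with Gm49776 on the same strand and 825 bases, 10.7% of its exon sequence, with Trmt2a on the other strand. Xpo5 also hosts a hairpin, Mir693, in an intron at chr17:46231531-46231619. Ago2 shares 219 exon bases with Chrac1 on the other strand, and Drosha 72 bases with the miRNA gene Gm47288 on its own strand.

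Ago3, Ago1 and Ago4 are neighbours on the minus strand of chromosome 4, with 5455 bases between Ago3 (chr4:126331704-126429556) and Ago1 (chr4:126435012-126468583), and 20957 bases between Ago1 and Ago4 (chr4:126489541-126533472). Ago2 lies alone at chr15:73095844-73184935 on the minus strand. Also on chromosome 15, on the plus strand, are Drosha (chr15:12824815-12935291) and Tarbp2 (chr15:102518192-102523676). Dicer1 lies at chr12:104687742-104751952 and Prkra at chr2:76629898-76648015, both on the minus strand, and Xpo5 at chr17:46202782-46243598 on the plus strand. Exon length per gene, all isoforms merged, ran from 2028 bases in Prkra to 16750 in Dicer1 and 16571 in Ago3. Most of the Ago3 exon sequence is untranslated, since its coding part is 2626 bases.

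Promoter sequence from RefSeq (GRCm38.p6) was found for 9 of the 10 genes, all but Ago2. The 250 bases before the start that RefSeq gives are shown for Drosha and Xpo5, the steadiest pair across libraries, and for Dicer1 and Ago3, which varied together, as described further on. Capitals mark the 10 NRF1 consensus letters in Xpo5, which read the same on both strands, and ETS letters (CCGGAAG) in Drosha and Ago3, searched on both strands. The RefSeq start lies a little inside the gene as GENCODE places it for Xpo5 and Ago3, so the ends of these windows, the Ago3 ETS letters included, fall within the gene coordinates given above.
Drosha, chr15:12824565-12824814, plus strand: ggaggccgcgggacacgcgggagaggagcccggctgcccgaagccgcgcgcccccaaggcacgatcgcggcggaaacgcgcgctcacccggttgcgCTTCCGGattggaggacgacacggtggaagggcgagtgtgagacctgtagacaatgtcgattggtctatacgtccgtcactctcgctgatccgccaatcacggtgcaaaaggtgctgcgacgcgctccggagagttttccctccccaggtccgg
Xpo5, chr17:46202561-46202810, plus strand: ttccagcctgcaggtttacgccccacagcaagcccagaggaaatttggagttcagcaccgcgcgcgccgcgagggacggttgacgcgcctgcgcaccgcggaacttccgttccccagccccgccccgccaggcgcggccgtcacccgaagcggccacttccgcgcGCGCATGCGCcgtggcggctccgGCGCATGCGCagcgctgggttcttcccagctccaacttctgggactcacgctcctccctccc
Dicer1, chr12:104751953-104752202, minus strand: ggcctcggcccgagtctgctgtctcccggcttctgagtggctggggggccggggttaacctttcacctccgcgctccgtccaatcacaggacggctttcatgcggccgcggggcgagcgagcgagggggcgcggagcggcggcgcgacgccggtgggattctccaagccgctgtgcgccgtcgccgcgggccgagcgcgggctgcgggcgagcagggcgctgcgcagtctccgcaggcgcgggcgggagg
Ago3, chr4:126429543-126429792, minus strand: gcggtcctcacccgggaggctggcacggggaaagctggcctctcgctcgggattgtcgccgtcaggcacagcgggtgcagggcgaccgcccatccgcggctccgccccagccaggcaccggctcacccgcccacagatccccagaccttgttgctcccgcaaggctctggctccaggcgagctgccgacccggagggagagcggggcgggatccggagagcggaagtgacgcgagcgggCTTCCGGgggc
The NRF1 letters occurred 2 times in the Xpo5 window and in no other of these genes' windows, against 0.782% of 32851 promoters of the same length that hold it. CCGGAAG was found in the Drosha and Ago3 windows, against 6.91% of all promoters. The CCAAT letters were in 6 of 10 windows (Ago1 has 2 windows, which overlap), against 33.8% of all, and the GC box letters GGGCGG in 9 of 10, against 32.7%. No window held the cyclic AMP response letters TGACGTCA, present in 1.55% of all. None of the 5 motifs contains another. By base composition all 10 windows were rich in G and C, from 60% in Tarbp2 to 85.6% in Ago4, against a median of 52.4% over all promoters. A match describes letters, and no binding was measured.

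Library totals ran from 20588280 to 25543939 counts, at which 3 counts, the most that a count of 0 allows, equal 0.117 to 0.146 CPM (read counts scaled to a common library total, as is usual for RNA-seq). These floors cover counting error only. All 6 pyramidal neuron markers, Slc17a7 and Neurod6 among them, were measured, and their sum ran from 1735 to 2823 CPM over the libraries. All 5 dentate granule cell markers were measured too, and summed to 214 to 635 CPM. The samples are labelled as hippocampal tissue, and the design text names CA1. Pool 2 replicate 1 stood apart, with a microglia marker sum of 1347 CPM against 403 to 648 in the other 19 libraries and an interferon response sum of 223 against 21.4 to 60.4 CPM. Choroid plexus markers ran from 91.4 to 8925 CPM, with the highest value in a Vehicle library. A list meant for RNAs without a poly(A) tail had 4 of 7 names measured, and it includes the protein-coding gene Lars2. Its sum was 1720 to 13789 CPM in Pool 1 and 3390 to 9411 in Pool 2. In Control it was 558 to 1815, and in Vehicle 647 to 5029 CPM. The paper lists Gm42418, Gm26917, Rn7sk and Lars2 from it among genes raised in both patient pools in these same data. None of the 10 genes correlated with the microglia, interferon response, choroid plexus or this last sum at an adjusted p under 0.05. Over the 20 libraries r ran from -0.46 to 0.27, with adjusted permutation p of at least 0.246 for r and 0.22 for rho. For Prkra and the microglia sum, r was 0.12 and rho 0.42 over the 20 libraries. Without Pool 2 replicates 1 and 3, the farthest from the median of that sum, its r was 0.66. The other genes then had r from -0.50 (Ago2) to 0.18 (Tarbp2), and these values were not tested. In bulk tissue, fewer cells of a type and less RNA per cell cannot be told apart.

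Per length of exon, Drosha was the most abundant of the 10 messages, at 17.4 ± 0.865 CPM per kilobase (mean ± SD, n = 20 libraries), higher than 81.2% of the 14797 genes with a mean of at least 1 CPM. Ago1 followed at 14.5 ± 1.66, Xpo5 at 10.7 ± 0.643 and Ago2 at 8.59 ± 1.52 CPM per kilobase. In the middle stood Prkra at 6.57 ± 0.607, Dicer1 at 4.41 ± 0.586, Ago3 at 4.27 ± 0.827 and Dgcr8 at 4.00 ± 0.390 CPM per kilobase. Lowest were Tarbp2 at 3.38 ± 0.372 and Ago4 at 2.27 ± 0.346 CPM per kilobase, the last above 28.6% of genes. Neighbours in this order had overlapping ranges over the 20 libraries throughout. Dicer1 exceeded Ago3 in 12 of 20 libraries, Ago3 exceeded Dgcr8 in 15, Ago2 exceeded Prkra in 16 and Dgcr8 exceeded Tarbp2 in 18, so these neighbours are not separated in every library. The other 5 neighbouring pairs kept their order in all 20. The order of the group means was the same in Vehicle, Pool 1 and Pool 2, and in Control it differed only by Ago3 standing above Dicer1. The partners of 1 complex were unequal in message, with Drosha far above Dgcr8. The order depends on exon length with all isoforms merged, which in Tarbp2 was 4549 bases with a coding part of 1095. In CPM over the 20 libraries Tarbp2 (mean 15.4) and Ago4 (15.8) were close, and Prkra was lowest (13.3).

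Drosha, the nuclear ribonuclease, was also the steadiest gene, with a coefficient of variation of 4.98% over the 20 libraries. Its levels were 111, 108, 104, 102 and 94.6 CPM in the 5 Vehicle libraries and 98.9, 100.2, 95.1, 102 and 105 CPM in the Control libraries. In Pool 1 they were 113, 110.1, 107, 103 and 104 CPM, and in Pool 2 they were 95.7, 105, 102, 99.1 and 103 CPM. The Pool 1 values lay at the upper end of the Control range and above it, with overlap. Dgcr8, its partner, was measured at 32.7, 27.7, 31.3, 28.2 and 33.6 CPM in Vehicle and at 26.7, 28.9, 29.1, 33.5 and 32.5 CPM in Control. Pool 1 libraries gave 39.0, 33.2, 28.2, 29.1 and 26.6 CPM of Dgcr8 and Pool 2 libraries 29.8, 33.3, 31.6, 29.6 and 30.9 CPM. Pool 1 thus held both the highest and the lowest of the 20 Dgcr8 values, and the groups overlapped.

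Xpo5, the export receptor, varied almost as little as Drosha, by 6.03%. Vehicle libraries gave 76.0, 75.6, 77.6, 72.7 and 61.1 CPM, and Control libraries 67.5, 73.4, 69.8, 75.2 and 73.6 CPM. In Pool 1 the levels were 79.7, 78.1, 75.3, 75.9 and 74.8 CPM, and in Pool 2 they were 69.0, 73.6, 72.4, 67.1 and 75.5 CPM. All Pool 1 values lay within or above the upper end of the Control and Pool 2 ranges, and Vehicle replicate 5 was the lowest library.

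Dicer1, the cytoplasmic ribonuclease, was measured at 83.3, 82.5, 79.9, 75.5 and 61.1 CPM in Vehicle and at 55.1, 59.5, 71.4, 92.9 and 76.9 CPM in Control. Pool 1 gave 83.4, 77.2, 74.2, 73.8 and 59.5 CPM, and Pool 2 gave 66.2, 85.9, 69.7, 73.9 and 75.1 CPM. The Control group alone spanned both extremes of the 20 values, a 1.69-fold range. Tarbp2 and Prkra, the genes of its partner proteins, had fewer counts than Dicer1. Tarbp2 ran from 12.6 to 16.7 CPM in Vehicle, 11.7 to 17.5 in Control, 14.2 to 17.2 in Pool 1 and 14.9 to 18.6 in Pool 2. Prkra ran from 11.55 to 14.5 CPM in Vehicle, 12.5 to 15.1 in Control, 11.04 to 14.7 in Pool 1 and 11.8 to 14.9 in Pool 2. Every pair of groups overlapped for both genes.

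The Argonaute genes spread more widely than the processing genes upstream of Dicer. Ago2 was measured at 133, 146, 146, 129 and 75.9 CPM in Vehicle and at 81.0, 100.1, 123, 140.1 and 128 CPM in Control. In Pool 1 it stood at 149.9, 139, 130.4, 117 and 93.4 CPM, and in Pool 2 at 114, 134, 103, 112 and 117 CPM. Vehicle replicate 5 was 1.98-fold below the highest library, Pool 1 replicate 1. Ago3 gave 80.9, 81.8, 78.1, 76.7 and 50.3 CPM in Vehicle and 50.9, 62.9, 82.4, 83.4 and 79.2 CPM in Control. Pool 1 libraries held 83.6, 82.8, 76.9, 68.9 and 38.7 CPM of Ago3 and Pool 2 libraries 65.4, 83.7, 50.7, 64.4 and 72.5 CPM. Its highest library was 2.16-fold above its lowest, the widest range of the 10 genes, with Pool 1 replicate 5 lowest of all. Ago1 ran from 94.9 to 138 CPM in Vehicle, 91.2 to 138 in Control, 110.5 to 145 in Pool 1 and 109.6 to 124 in Pool 2. Ago4 ran from 14.4 to 18.2 CPM in Vehicle, 11.1 to 18.8 in Control, 13.0 to 19.3 in Pool 1 and 12.8 to 20.4 in Pool 2. Both overlapped in every pair of groups.

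**Figure D1:**
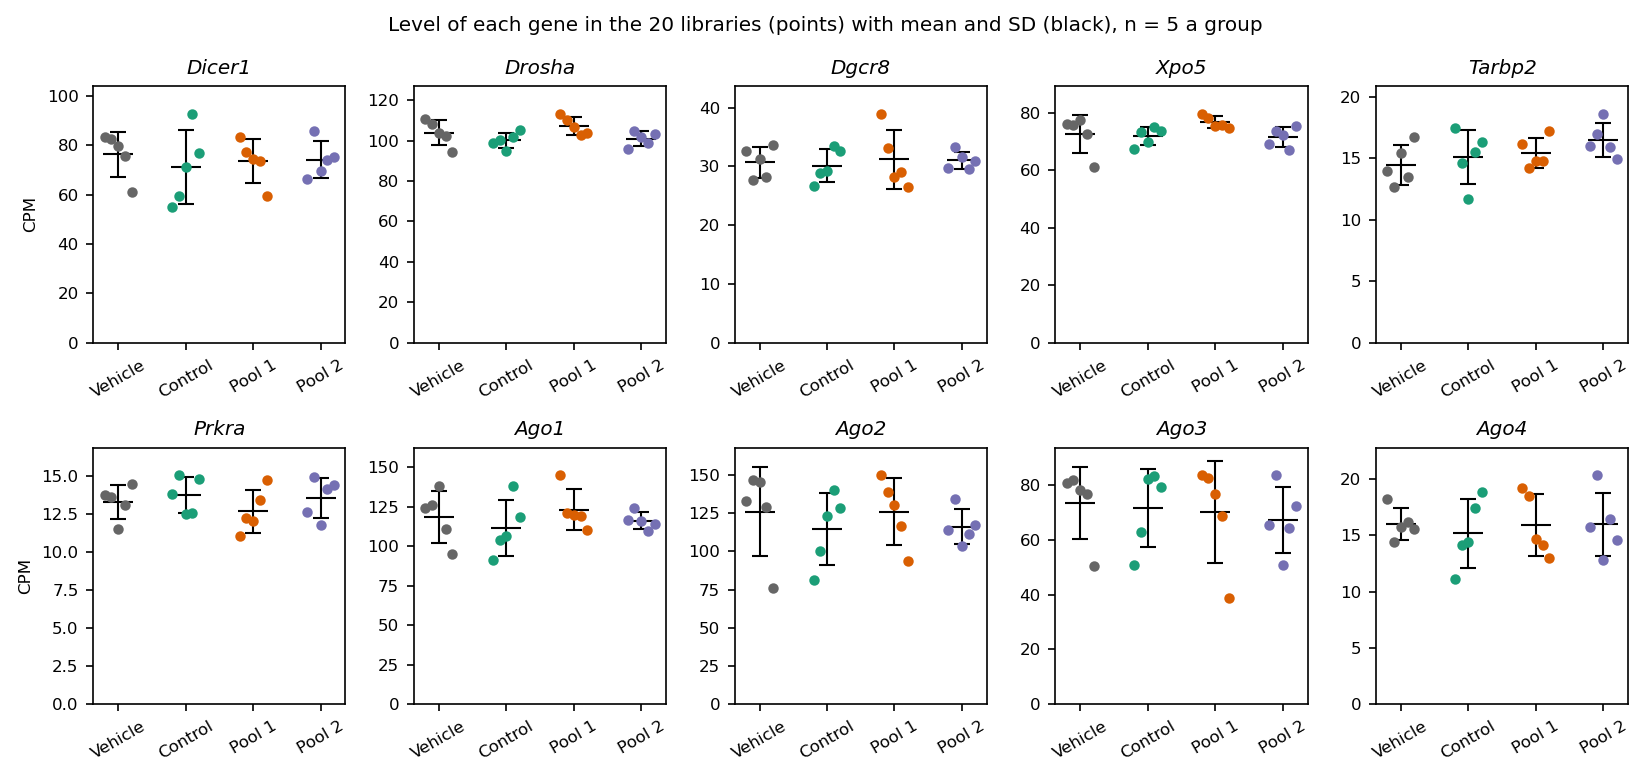
Level of each of the 10 genes (CPM, linear axis from 0) in the 5 libraries of each group, as points in replicate order, with the mean and SD in black. The groups overlap in every panel, and Ago2 and Ago3 show single low libraries such as Vehicle replicate 5 (75.9 and 50.3 CPM).

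Does infusing sRNAs, or sRNAs of patients rather than of controls, change these messages? In 5 comparisons (each patient pool against Control, the pools against each other, Control against Vehicle, and the mean of the 3 sRNA groups against Vehicle) none of the 10 genes passed the threshold the study used, a log2 fold change of at least 0.3 in size with an unadjusted p under 0.05. By edgeR's quasi-likelihood test, 0 of 10 genes were called in Pool 1 against Control, where 3.48% of all genes were called. Likewise 0 of 10 were called in Pool 2 against Control (6.22% of all genes), Pool 2 against Pool 1 (6.82%), Control against Vehicle (5.10%) and any sRNA against Vehicle (4.76%). The study also set aside genes of a mean count under 10, which none of the 10 is, and among the 16664 genes left the shares were 2.44%, 5.75%, 6.79%, 4.73% and 3.90% in the same order. None reached an unadjusted p under 0.05 in edgeR, which 5.22%, 7.70%, 8.52%, 6.64% and 6.13% of all genes did in the same order. None had an adjusted p under 0.05 over the whole table, where the share of genes called was 0.00% in the first 4 comparisons and 0.00794% in the last. DESeq2 called 0 of the 10 genes at an adjusted p under 0.05 in any comparison, against 5, 26, 115, 0 and 21 genes of the whole table. The comparisons share libraries of Control, Vehicle, Pool 1 or Pool 2 with each other, so they are not independent.

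The largest difference from Control in Pool 1 was that of Ago1, with a log2 fold change of 0.14 (SE 0.11, 95% confidence interval -0.08 to 0.36, adjusted p = 0.926 by edgeR). Drosha was 7.09% above Control in Pool 1 (log2 fold change 0.10, interval -0.04 to 0.23, edgeR adjusted p = 0.919) and Xpo5 6.76% above it (0.09, interval -0.05 to 0.24, edgeR adjusted p = 0.925). In Pool 2 the same genes were at the Control level, at 0.01 (interval -0.12 to 0.14) and -0.01 (interval -0.15 to 0.14) on the log2 scale. Against Pool 1, Pool 2 had less Drosha by a log2 fold change of -0.09 (interval -0.22 to 0.04) and less Xpo5 by -0.10 (interval -0.25 to 0.04), with adjusted p of 0.785 and 0.771 by edgeR. An exact two-sided permutation test of log2 CPM, which takes each gene's spread on its own, gave an unadjusted p of 0.0317 for Drosha and 0.0159 for Xpo5 in Pool 1 against Control, and 0.0476 and 0.0238 in Pool 2 against Pool 1. These 4 were the ones under 0.05 among 50 such tests (10 genes, 5 comparisons), where the smallest p that 5 against 5 libraries can give is 0.00794. By the same permutation test 5.22% of all genes were under 0.05 in Pool 1 against Control and 7.67% in Pool 2 against Pool 1, and 6.03%, 4.45% and 5.14% in Pool 2 against Control, Control against Vehicle and any sRNA against Vehicle. The groups overlapped in each of the 4. All 4 tests rest on the same 5 Pool 1 libraries, and the 2 genes correlated with r of 0.82 over the 20 libraries, so they are not separate results. DESeq2 likewise gave Drosha an unadjusted p of 0.0427 and 0.0411 in these 2 comparisons (adjusted p = 1.0 and 0.494), and without Control replicate 4 the Ago1 difference of Pool 1 from Control was 0.23 on the log2 scale (edgeR unadjusted p = 0.0333, adjusted p = 0.629). It was 0.08 without Control replicate 1 and 0.07 without Pool 1 replicate 1.

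Other differences were small beside their intervals. Dicer1 differed from Control by 0.05 (interval -0.20 to 0.30) in Pool 1 and 0.06 (interval -0.19 to 0.31) in Pool 2 on the log2 scale. Dgcr8 differed by 0.05 (interval -0.15 to 0.25) and 0.04 (interval -0.16 to 0.24). Tarbp2 stood highest against Vehicle, with a log2 fold change of 0.12 (interval -0.06 to 0.30, edgeR adjusted p = 0.978) for the 3 sRNA groups together. Prkra was lower in Pool 1 than in Control by a log2 fold change of -0.12 (interval -0.33 to 0.09). Ago2, the slicing Argonaute, differed from Control by 0.14 (interval -0.20 to 0.48) in Pool 1 and by 0.02 (interval -0.32 to 0.36) in Pool 2, and Control differed from Vehicle by -0.14 (interval -0.48 to 0.20). For Ago3 the difference from Control was -0.03 (interval -0.43 to 0.37) in Pool 1 and -0.09 (interval -0.49 to 0.31) in Pool 2. Single libraries moved these differences of Pool 1 from Control. Without Control replicate 1 they were 0.03 for Ago2, -0.03 for Dicer1 and -0.13 for Ago3. Without Pool 1 replicate 5 they were 0.23 for Ago2, 0.12 for Ago3 and 0.10 for Dgcr8. Dicer1 was at 0.16 without Control replicate 4, and Dgcr8 at -0.04 without Pool 1 replicate 1. In Pool 2 without Control replicate 1, Dicer1 was at -0.02, Dgcr8 at 0.001, Ago2 at -0.08 and Ago3 at -0.19. Without Control replicate 4, Dicer1 and Ago2 in Pool 2 were at 0.16 and 0.09. The Ago3 difference in Pool 2 was -0.005 without Pool 2 replicate 3. Over all alternatives run, Ago2 in Control against Vehicle ran from -0.27 to -0.04. The intervals of Drosha, Dgcr8 and Xpo5 lay within a log2 fold change of 0.3 in all 5 comparisons, whereas those of Ago2 and Ago3 reached beyond it in all 5, so a change of that size in them is not excluded, and those of Dicer1, Tarbp2, Prkra, Ago1 and Ago4 did so in at least 1 comparison. The median log2 fold change of the 10 genes was 0.06, 0.03, -0.03, -0.04 and -0.02 in the order above, beside -0.01, 0.00, 0.02, -0.01 and -0.01 over all genes.

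**Figure D2:**
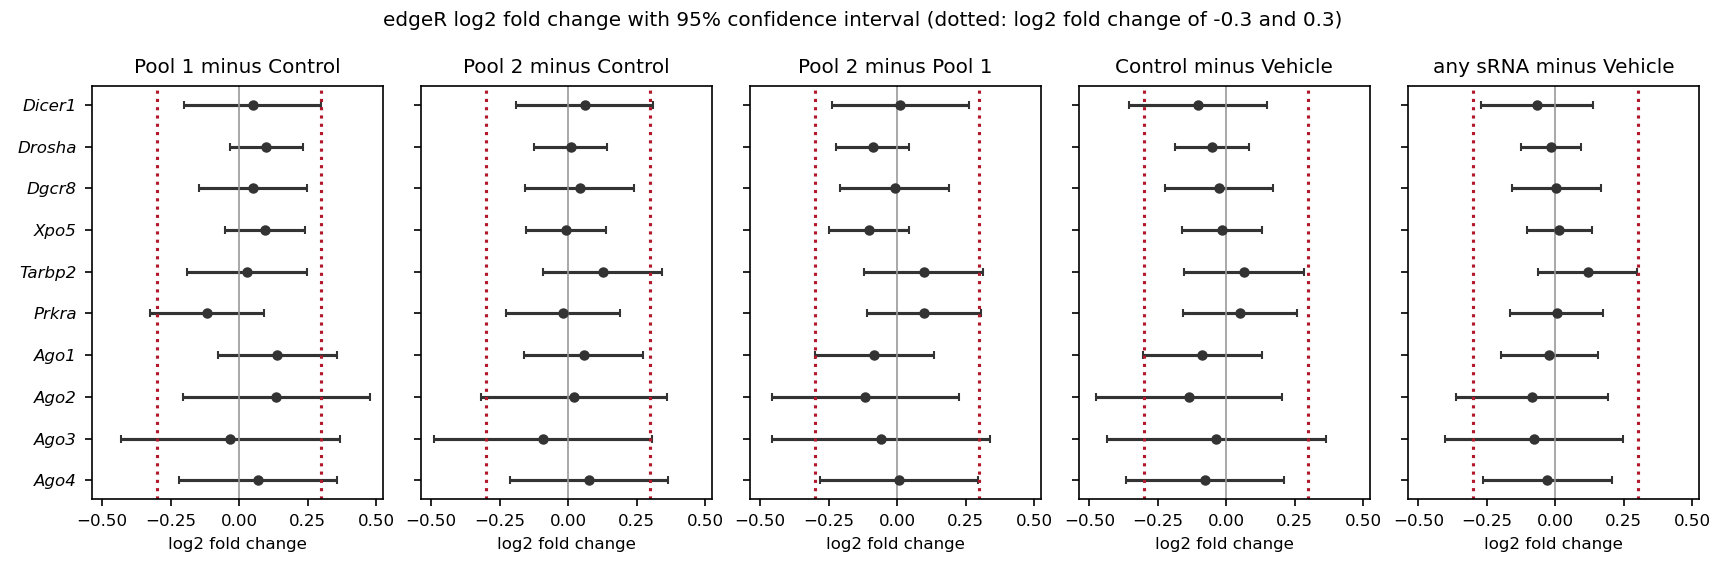
Log2 fold change of each gene (edgeR, points) with its 95% confidence interval (bars) in the 5 comparisons; the dotted lines mark -0.3 and 0.3. Every interval includes 0, and those of Ago2 and Ago3 are the widest (Ago3 in Pool 1 against Control, -0.43 to 0.37).

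Within a library the Argonaute messages can be set against each other with no library scaling. Per kilobase of exon, Ago1 made up 49.1% ± 2.72 (SD, n = 20) of the Argonaute sum, Ago2 28.9% ± 1.68, Ago3 14.3% ± 1.58 and Ago4 7.71% ± 0.881. In raw counts, which favour the long Ago2 and Ago3 messages, Ago1 and Ago2 were nearly level at 36.4% and 37.0%. Ago1 was the largest share per kilobase in all groups, at 48.4% ± 2.52 in Vehicle, 48.6% ± 2.54 in Control, 49.8% ± 3.63 in Pool 1 and 49.6% ± 2.69 in Pool 2 (n = 5 each). Ago3 made up 14.6% ± 0.881, 15.2% ± 1.18, 13.6% ± 2.36 and 14.0% ± 1.53 in the same groups. The widest difference between groups was that of Ago3 in Pool 1 against Control, -1.56 percentage points (exact two-sided permutation test, p = 0.270). It includes Pool 1 replicate 5, at 9.56%. The other Pool 1 libraries were at 13.9% to 15.4%, with Control at 14.2% to 17.2%. In Pool 2 against Control the Ago3 difference was -1.23 points (exact permutation p = 0.222). Over the 20 tests of 4 shares in 5 comparisons, every adjusted p was at least 0.986. The Ago2 share differed by -0.69 points between Control and Vehicle (exact permutation p = 0.659) and by -0.49 points for any sRNA (exact permutation p = 0.587). In Vehicle replicate 5 Ago2 made up 24.2%, against 29.3% to 31.7% in the other Vehicle libraries, and without that library the differences were -1.95 and -1.76 points, which are given with no test because the library stands out in the very share compared.

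**Figure D3:**
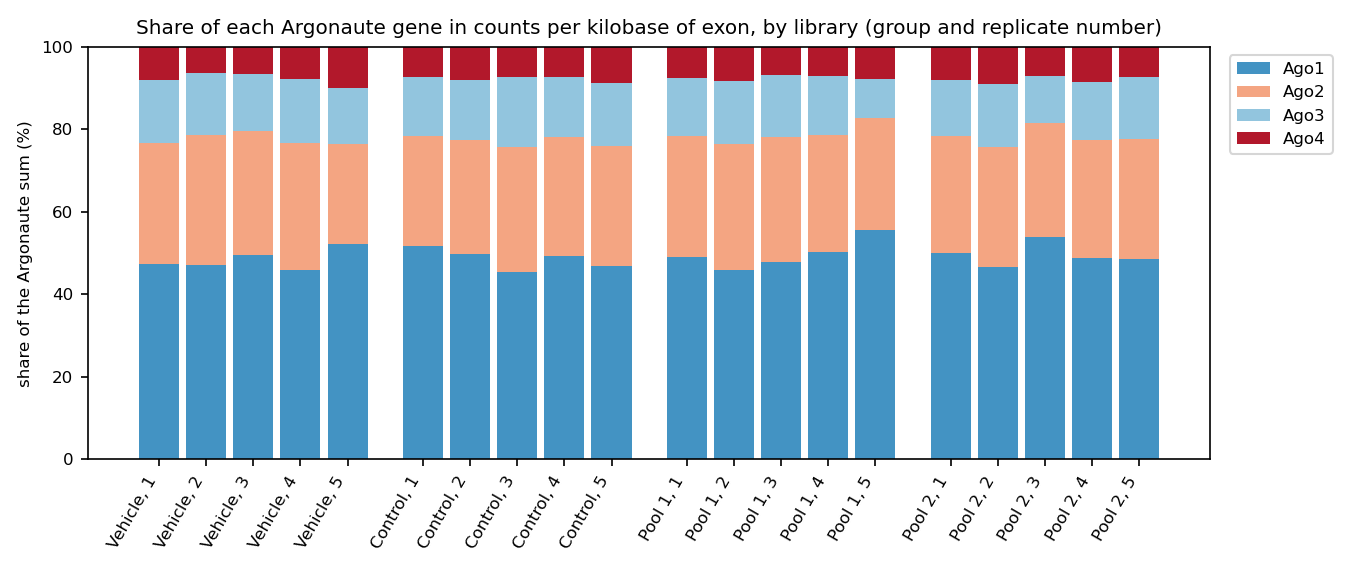
Share of Ago1, Ago2, Ago3 and Ago4 in the Argonaute sum (percent of counts per kilobase of exon), 1 stacked bar for each of the 20 libraries, ordered by group and replicate number. Ago1 is the largest share in every bar, and Ago3 is smallest in Pool 1 replicate 5 (9.56%).

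More of the variation lay between libraries of a group than between groups, and several genes shared it. In Control replicate 1 all 5 of Dicer1 and the Argonautes were below their 20-library means, at 72.3% of them on average, and so they were in Pool 1 replicate 5 (77.9%), Vehicle replicate 5 (79.2%), Control replicate 2 (86.1%), Pool 2 replicate 3 (86.3%) and Pool 2 replicate 1 (95.1%). Pool 1 replicate 1 stood highest, at 120.2%. The low libraries came from all 4 groups. Over the 20 libraries the log2 levels of Dicer1 and Ago2 correlated with Pearson's r of 0.89, those of Ago1 and Ago2 and of Ago2 and Ago3 both with 0.87, and those of Drosha and Xpo5 with 0.82. All 10 pairs among Dicer1 and the Argonautes were positive, from 0.60 to 0.89 with a median of 0.78. Tarbp2 and Prkra ran the other way against most of the rest, with r of -0.59 between Tarbp2 and Ago3 and -0.54 between Prkra and Ago1. These are descriptions over 20 libraries, in which genes share each library and its depth.

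One property of the libraries moved closely with the long messages. For each library the trend of expression with exon length was taken as the slope of log2 expression, relative to the mean library, on log2 exon length over all well-measured genes. It ran from -0.107 per doubling of length in Control replicate 1 to 0.0564 in Pool 2 replicate 2. Dicer1, of the longest exon sequence, followed it with Pearson's r of 0.94 and Spearman's rho of 0.92 (permutation p = 1e-05 for both, the smallest that 100000 permutations can give; 3.75e-04 and 5e-04 after Benjamini-Hochberg adjustment over 150 relations of 10 genes with 15 library measures). Only 0.230% of the 14797 genes of at least 1 CPM had an r this high. Ago2 followed it with r of 0.91 and rho of 0.92 (0.622% of genes as high) and Ago3 with r of 0.87 and rho of 0.89 (1.76% of genes as high), with the same permutation p of 1e-05. Without Control replicate 1 and Pool 1 replicate 5, the farthest from the median of the trend, r was 0.89 for Dicer1, 0.87 for Ago2 and 0.85 for Ago3. Around the group means it was 0.95, 0.92 and 0.91. Ago1 gave r of 0.79 and Ago4 0.70, Drosha and Xpo5 both 0.65, Dgcr8 0.48, Prkra -0.38 and Tarbp2 -0.45. Ago3, whose exons hold the least G and C of the 10 genes (41.8%), also ran against the library trend with GC content, with r of -0.81 and rho of -0.66 (permutation p = 1.8e-04 and 0.00256, adjusted 0.0045 and 0.037), and r of -0.59 without the same 2 libraries.

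The trends with GC content and exon length were then removed from the levels of each library, a step chosen after seeing the data. Over the 20 libraries the SD of log2 CPM went from 0.198 to 0.0756 for Dicer1. It went from 0.318 to 0.122 for Ago3 and from 0.277 to 0.156 for Ago2. For Drosha it went from 0.0717 to 0.0620. The corrected levels still correlated with the length trend, with r of 0.82 for Ago2, 0.76 for Ago1, 0.74 for Drosha, 0.58 for Ago3 and 0.33 for Dicer1. Correlations among Dicer1 and the Argonautes then ran from 0.01 (Dicer1 with Ago3) to 0.80 (Ago1 with Ago2), with a median of 0.44 against 0.78 before. Drosha and Xpo5 kept an r of 0.64. With the same correction in the edgeR fit, 0 of 10 genes passed the threshold in each of the 5 comparisons, and most differences of Pool 1 from Control were smaller. On the log2 scale Drosha went from 0.10 to 0.06, Xpo5 from 0.09 to 0.05, Ago1 from 0.14 to 0.09, Ago2 from 0.14 to 0.07 and Prkra from -0.12 to -0.04. Dicer1 went from 0.05 to -0.01, and Ago3 from -0.03 to -0.07. Between the pools, Drosha was at -0.09 before and after, and Xpo5 went from -0.10 to -0.09.

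**Figure D4:**
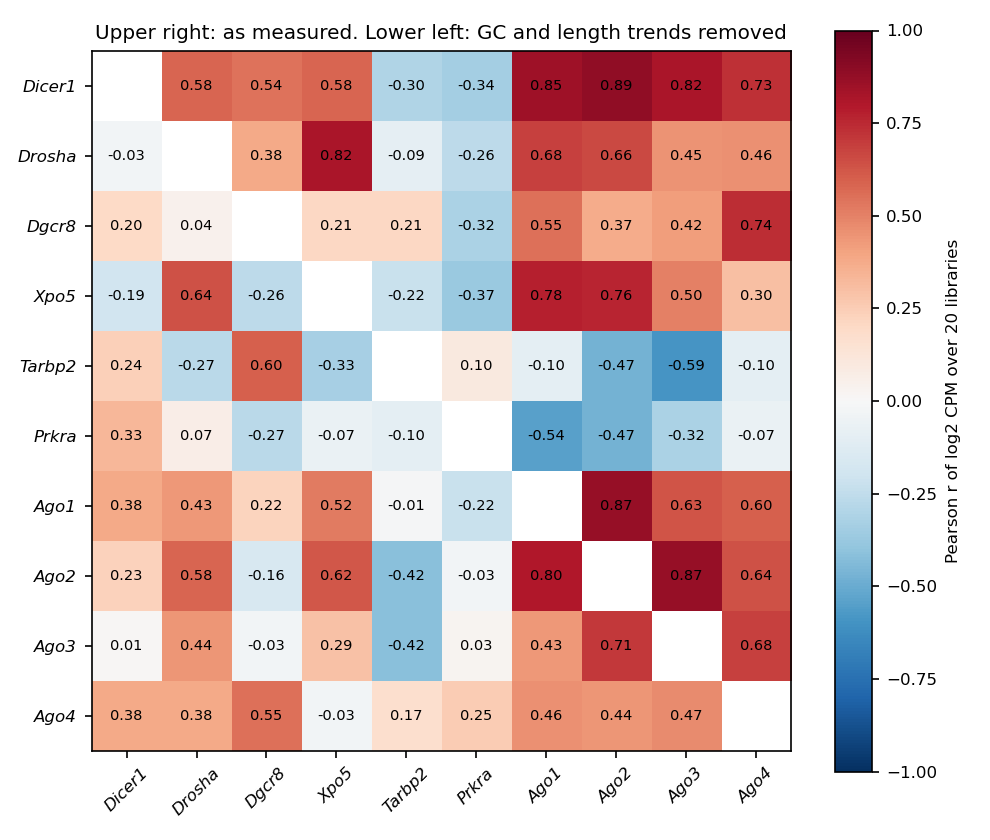
Pearson's r of log2 CPM between each pair of the 10 genes over 20 libraries, as measured (upper right) and after the trends with GC content and exon length were removed (lower left); red is positive and blue negative. Dicer1 with Ago3 goes from 0.82 to 0.01, while Ago1 with Ago2 goes from 0.87 to 0.80.

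Dgcr8 followed another property, the markers of dentate granule cells. The summed level of Prox1, C1ql2, Dsp, Lct and Tdo2 was 635 CPM in Pool 1 replicate 1, where Dgcr8 was highest (39.0 CPM), and 214 CPM in Pool 1 replicate 5, where Dgcr8 was lowest (26.6 CPM). Over 20 libraries the log2 levels correlated with r of 0.83 (permutation p = 1e-05) and rho of 0.79 (permutation p = 7e-05), or 3.75e-04 and 0.0021 after adjustment over the same 150 relations. An r this high was found in 0.743% of the 14797 genes. Without Control replicate 4 and Pool 1 replicate 1, the farthest from the median marker sum, r was 0.77, around the group means it was 0.89, and with the GC and length trends removed it was 0.70. With the pyramidal neuron marker sum Dgcr8 ran inversely, with r of -0.61 (rho -0.64, permutation p = 0.00418 and 0.00322, adjusted 0.0392 and 0.0402) and -0.52 without Vehicle replicate 1 and Pool 1 replicate 5. With the oligodendrocyte marker sum it gave r of -0.61 and rho of -0.52 (permutation p = 0.00417 and 0.0205, adjusted 0.0392 and 0.181), and r of -0.36 without Control replicate 5 and Pool 1 replicate 1. The gene closest to Dgcr8 among the 14796 compared was Dsp, itself a dentate marker on that list, at r of 0.87. Whether the dissection differed between libraries was not tested.

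**Figure D5:**
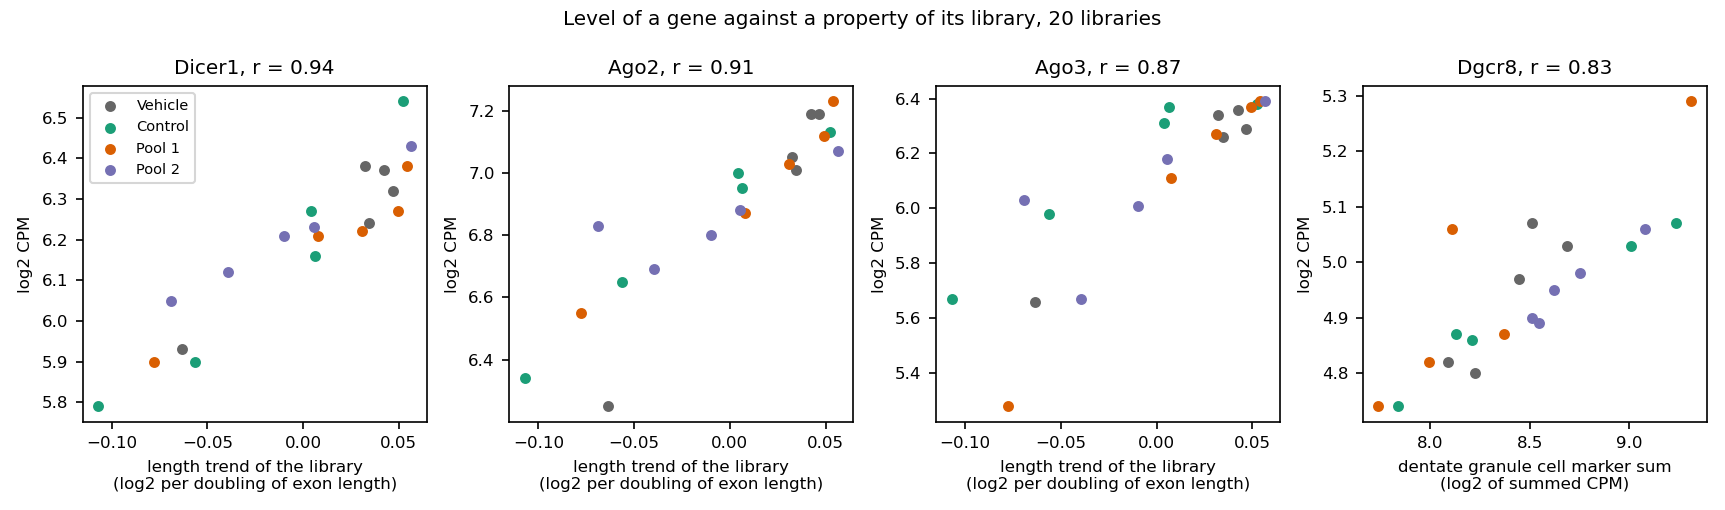
Log2 CPM of Dicer1, Ago2 and Ago3 against the length trend of each library, and of Dgcr8 against the log2 summed CPM of dentate granule cell markers, 1 point a library, coloured by group (20 libraries). Each gene rises with the property plotted (r of 0.94, 0.91, 0.87 and 0.83), and each group is spread along the axis.

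The genes most alike each of the 10, by r of log2 CPM over the 20 libraries among genes of at least 1 CPM, were found by rule, as descriptions. For Ago2 they were Nsd3, Helz and Zfp236 (all 0.97), and for Ago3 Tasor2 and Ric1 (both 0.97) and Bdp1 (0.96). For Ago1 they were Rad54l2 and Hmbox1 (both 0.95) and Prrc2b (0.94), and for Dicer1 Gm43268, Atf7 and Med12l (all 0.95). Xpo5 was closest to Cdyl2 and Spg11 (both 0.90), Drosha to Apc2 (0.86), Ago4 to Sirt1 (0.87), Tarbp2 to Rfng and Mta2 (both 0.84) and Prkra to Gstt1 and Eva1c (both 0.69). None of the 10 genes was among the 3 closest of another.

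The wider pathway was read from 8 lists: GW182 and decay factors of the silencing complex, Microprocessor cofactors, Argonaute loading chaperones, precursor and miRNA turnover factors, Argonaute-associated neuronal RNA-binding proteins, export partners, double-stranded RNA transport with transfer RNA cleavage, and the PIWI clade. Of their 90 names 85 were measured. With a mean count of at least 10, as the study required, 0 rose and 1 fell past its threshold in Control against Vehicle, and none passed in either direction in the other 4 comparisons, with 3, 3, 4, 2 and 2 of all 85 genes at an unadjusted p under 0.05 in the order above and 0 at an adjusted p under 0.05 (edgeR). Over all genes of that mean count 4.73% passed the threshold in Control against Vehicle, and of all genes 5.22% to 8.52% had an unadjusted p under 0.05. The gene lower in Control was Ajuba, a LIM-domain scaffold protein, at 1.64 ± 0.211 CPM in Control against 2.30 ± 0.599 in Vehicle (SD, n = 5 each; log2 fold change -0.49, SE 0.21, edgeR adjusted p = 0.735), with ranges of 1.42 to 1.97 and 1.66 to 3.12 CPM that overlap. The piRNA factor Mael, a germline gene with a mean of 3.15 counts a library and 4 libraries at 0, passed the fold and p limits in Pool 1 against Control but not the minimum count. Of the 22 GW182 and decay genes, Tnrc6a had a median of 83.0 CPM over the libraries, Tnrc6b 122 and Tnrc6c 137, and 0 of 22 passed the threshold in any comparison. All 9 Argonaute loading chaperone genes, which hold Hsp90-type proteins that help a duplex enter an Argonaute, were below Control in both patient pools, with medians of -0.10 and -0.12 on the log2 scale, none past the threshold and 1 in each at an unadjusted p under 0.05 (edgeR: Ptges3 at -0.22 in Pool 1 and Dnaja2 at -0.17 in Pool 2, with adjusted p of 0.917 and 0.628). The 2 pools share their Control libraries. Against Vehicle, 7 of the 9 chaperone genes were higher in Control, with a median log2 fold change of 0.07. For the 3 sRNA groups together against Vehicle, 6 of the 9 were lower and 3 higher, with a median of -0.002. All 5 export partners were also below Control in Pool 2, and 4 of 5 in Pool 1. Over all genes 12859 and 12420 of 25190 were below Control in Pool 1 and Pool 2, and over the 8 lists together 46 and 51 of 85. PIWI genes, the germline relatives of the Argonautes, were low: Piwil1 had a median of 0.231 CPM and Piwil4 of 0.0786 CPM, near the floor of 3 counts, and Piwil2 a median of 1.22 CPM (0.647 to 1.69). The germline helicase gene Ddx4 had a median of 3.66 CPM.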

How the data were processed

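Poly(A)-selected, strand-specific libraries of 20 hippocampal samples (5 a group) were sequenced by the authors as single-end reads of 50 bases. The deposited values are raw counts per gene, which the authors made with STAR 2.5.3a on GRCm38/mm10 with GENCODE M20, leaving out genes with a summed count under 10. FastQC 0.11.5 is named in the submitters' processing notes. From these counts, edgeR 4.0.16 (R 4.3.3) fitted all 4 groups together with TMM scaling and robust quasi-likelihood estimates. P-values were adjusted by Benjamini-Hochberg over all 25190 genes. Gene lengths, GC content and positions came from GENCODE M21 on the same build, in which 25150 of the genes were found by ID. All 10 genes described have the same start and end there as in the deposited table. CPM values use TMM-scaled library sizes, log2 CPM adds a prior count of 2, and CPM per kilobase divides by merged exon length. Single values were compared by exact permutation tests. In simulated data for Pool 1 against Control on 25190 genes, edgeR recovered 81% of genes changed 2-fold and 99% of those changed 4-fold. The alternatives were DESeq2 1.42.0, its size factors, filters on low counts (filterByExpr, or a mean count of at least 10), the default estimate of the spread, fits of the groups compared only, a block on the replicate number, a correction for GC content and length, and leaving out libraries. Genes named from the pathway lists are those past the threshold with a mean count of at least 10, at most 5 a comparison, and the other list genes named were chosen after their values were seen. Chosen for likeness were the 3 genes of highest r for each gene. The genes and lists were chosen with earlier results of these data known.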

Additional observations from a re-analysis of the deposited data

Results flagged for a closer look

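In each group of 5 libraries, the levels of the 10 genes (40 groups) and the Argonaute shares (16 groups) were searched for a library standing far from the other 4, which chance alone flags in about 1 of 20 groups. In Vehicle replicate 5, Ago2 was at 75.9 CPM, with the other Vehicle libraries at 129 to 146 CPM. In the same library Ago3 was at 50.3 CPM, with the others at 76.7 to 81.8 CPM. In Pool 1 replicate 5 the Ago3 share of the Argonaute sum was 9.56%, with the other Pool 1 libraries at 13.9% to 15.4%. Both libraries had negative trends of expression with exon length, -0.0634 and -0.0777 per doubling, whose part in these values was not tested.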

How the results depend on the processing

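The count of the 10 genes past the threshold was 0 under every alternative run in all 5 comparisons, leaving out each library included, and with the replicate block it was also 0. Same-numbered libraries of different groups did not deviate together (r of -0.321 to 0.277, median 0.0282), and 1 of 20 libraries was closest to one of its own number, so the numbers were not taken to pair the samples. The exact permutation test put Drosha and Xpo5 under an unadjusted 0.05 in 2 comparisons where edgeR did not, as given above. Of the alternatives for the Argonaute shares 278 kept their side of the threshold. The other 2, both the Ago2 share without Vehicle replicate 5, its outlying library, are given above with no test. Over all genes, the count past the threshold ranged over the alternatives from 402 to 1249 in Pool 1 against Control (876 in the fit reported), 960 to 1818 in Pool 2 against Control (1566), 1133 to 2067 in Pool 2 against Pool 1 (1718), 795 to 1792 in Control against Vehicle (1285) and 640 to 1402 for any sRNA (1200). At 5 libraries a group, only the intervals of Drosha, Dgcr8 and Xpo5 stayed within a log2 fold change of 0.3 in all 5 comparisons, so changes of that size in the other 7 genes are not excluded.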

Other observations

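Ago4 and Dicer1 also followed the dentate granule cell marker sum over the 20 libraries, with r of 0.67 (rho 0.59) and 0.64 (rho 0.58), and 0.61 and 0.52 without Control replicate 4 and Pool 1 replicate 1; permutation p-values for r were 0.00118 and 0.00227, or 0.0221 and 0.0284 after adjustment over 150 relations, and those for rho did not pass after it (both 0.0857). Ago1 had r of 0.59 with the dentate sum (adjusted permutation p = 0.0508) and 0.73 around the group means. Ago4 ran against the pyramidal neuron marker sum, with r of -0.66 (rho -0.68). Drosha had r of 0.24 with the dentate and -0.02 with the pyramidal sum, and 0.50 and -0.39 around the group means. Prkra correlated with the meningeal fibroblast marker sum with r of 0.63 and rho of 0.65 (permutation p = 0.00287 and 0.0027, adjusted 0.0331 and 0.037), and r of 0.65 without Pool 1 replicate 5 and Pool 2 replicate 4. Of the 150 relations, 17 had an adjusted p of r under 0.05. Among them was Xpo5 with the total count of the library, at r of 0.60 and rho of 0.35 (adjusted permutation p = 0.0416 and 0.349). Another was Tarbp2 with the library trend with GC content, at r of 0.62 and rho of 0.48 (adjusted permutation p = 0.0392 and 0.22).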
